A study of Homo sapiens with 2 samples.

Results

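Transcripts of 10 imprinted genes were followed in single H9 human embryonic stem cells grown under naive conditions. The genes were chosen by name as well-known members of their imprinted regions: MEG3, H19, IGF2, DLK1, PEG3, PEG10, SNRPN, MEST, KCNQ1OT1 and PLAGL1. No measured value was used to choose them, but earlier results of these data were known when they were chosen. All 10 were found, among 36601 genes, in the tables of both libraries. Of these, 8 reached 50 unique molecular identifiers (UMIs, each standing for 1 captured transcript) in every comparison made below, and IGF2 and PEG3 did not.

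H9 is an established embryonic stem cell line, and RSeT is a commercial medium that holds such cells in a naive state. In both groups the cells grew in RSeT with 10 nM DZNep, an inhibitor of histone methylation, and 5 nM TSA, an inhibitor of histone deacetylases. Both received 25 nM of a dye-labelled oligonucleotide by lipid transfection, with 0.7 µM trans-ISRIB, 5 µM emricasan and 10 µM Y-27632 present for the first 24 h. One group received an oligonucleotide antisense to LINE1 RNA (ASO-L1) and the other its sense control (SO-L1). Dye-positive cells were sorted 48 h after transfection, so both libraries hold cells that took up the oligonucleotide, and neither holds untreated cells. Each group is 1 library, so nothing below could be checked in a replicate, and every "higher" or "lower" refers to these 2 libraries or to sets of cells in them.

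At an imprinted gene, DNA methylation set in the egg or the sperm leaves only the maternal or the paternal copy active. The genes lie in clusters, each with a control region whose methylation on 1 parental copy is normally kept through early development by ZFP57, ZNF445, TRIM28 and DNMT1. Human cells in naive culture are known for losing this methylation at many control regions. Neither DNA methylation nor the parental origin of transcripts was measured here, so the values below are total levels and their distribution over cells.

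A barcode counted as a cell if it had 1000 or more genes and if mitochondrial (MT) genes took under 20% of its UMIs. This left 6553 of 13070 barcodes in SO-L1 and 9084 of 11659 in ASO-L1. Kept cells were described in 2 classes, with an MT share below 2% (1857 cells in SO-L1 and 2531 in ASO-L1) and of 2% or more (4696 and 6553 cells). The median number of UMIs per cell was 33612 and 45154 in the lower and the higher MT class of SO-L1, and 44720 and 56296 in those of ASO-L1. The median MT share was 0.148% and 8.91% in SO-L1 and 0.133% and 7.31% in ASO-L1. The libraries shared 6105 barcode sequences, of which 274 were kept as cells in both. Leaving out those 274 changed none of the counts of members given below. Of the barcodes left out for having under 1000 genes, 5032 of 6045 in SO-L1 and 788 of 2045 in ASO-L1 were kept cells of the other library.

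The labelled cell type was checked against 8 pluripotency, 8 naive and 8 primed markers. At 8000 UMIs per cell, all 8 naive markers (among them KLF17, DPPA3 and DPPA5) were detected in each of the 4 sets of cells. Their summed level was 312 and 289 CPM (a gene's share of the UMIs in a set of cells, on the usual scale of counts) in the lower and higher MT class of SO-L1, and 639 and 395 CPM in those of ASO-L1. The primed markers were also present, at 754, 854, 575 and 874 CPM in the same order. Markers of the 8-cell stage (8C, such as ZSCAN4 and LEUTX) summed to 23.2, 1.99, 134 and 9.45 CPM, and the pluripotency markers to 3116, 3890, 1907 and 3696 CPM. Markers of some other cell types were also highest in the lower MT class of ASO-L1. The mesendoderm list summed to 21.0, 14.3, 135 and 59.7 CPM, the mesenchymal or fibroblast list to 107, 35.3, 263 and 67.5 CPM, and the trophectoderm or amnion list to 9.19, 4.08, 16.3 and 5.90 CPM. The neural list was at 697, 605, 727 and 484 CPM. The primitive endoderm list was lowest in that set, at 55.6, 52.4, 34.7 and 42.0 CPM. The lower MT class of ASO-L1 thus had the highest naive, 8C, mesendoderm, mesenchymal, trophectoderm and neural levels. Its pluripotency, primed and primitive endoderm levels were the lowest. The part of this in the members' values for that set was not tested.

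Promoters of 5 members (MEG3, H19, SNRPN, MEST and PLAGL1) matched an entry in the RefSeq promoter table of GRCh38.p14. Those of MEG3, SNRPN and MEST are shown because ZFP57, the factor that protects imprinted methylation, is known to bind the letters TGCCGC when their CpG is methylated. MEG3, SNRPN, MEST and PLAGL1 have 3, 4, 5 and 5 promoters in the table, and for each the window with most CpG sites was taken. Each window runs from 250 bases before a transcript start to 50 bases after it, 5′ to 3′ on the gene's strand, and capitals mark TGCCGC read on either strand. MEG3's window is chr14:100825858-100826157 on the plus strand, inside the annotated gene. SNRPN's is chr15:24954737-24955036 on the plus strand and also holds the annotated start of SNURF. MEST's is chr7:130491835-130492134 on the plus strand.
MEG3: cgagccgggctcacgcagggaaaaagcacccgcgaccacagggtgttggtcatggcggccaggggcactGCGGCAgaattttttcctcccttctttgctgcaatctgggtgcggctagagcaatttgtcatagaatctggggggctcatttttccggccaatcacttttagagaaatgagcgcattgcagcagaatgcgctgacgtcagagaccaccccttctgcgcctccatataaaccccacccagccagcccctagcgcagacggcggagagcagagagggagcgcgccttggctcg
SNRPN: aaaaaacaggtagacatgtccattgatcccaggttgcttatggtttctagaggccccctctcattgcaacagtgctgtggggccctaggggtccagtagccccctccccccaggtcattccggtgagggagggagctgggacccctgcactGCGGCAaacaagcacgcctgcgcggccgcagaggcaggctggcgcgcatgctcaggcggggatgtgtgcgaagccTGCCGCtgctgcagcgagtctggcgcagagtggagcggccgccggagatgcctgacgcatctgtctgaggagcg
MEST: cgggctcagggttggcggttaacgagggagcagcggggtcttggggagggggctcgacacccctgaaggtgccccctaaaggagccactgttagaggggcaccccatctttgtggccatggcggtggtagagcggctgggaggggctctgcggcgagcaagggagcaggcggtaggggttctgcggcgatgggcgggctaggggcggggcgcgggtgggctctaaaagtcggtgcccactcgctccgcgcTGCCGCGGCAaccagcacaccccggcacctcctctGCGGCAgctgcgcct
The MEG3 window holds 1 match, the SNRPN window 2, and the MEST window 3, of which 2 overlap by 2 bases. The PLAGL1 window (chr6:144008210-144008509, minus strand) has 2 matches, and the H19 window (chr11:2001217-2001516, minus strand) has none. Of all 35116 RefSeq promoters, 16.7% hold a match, a share per single promoter that is not matched to windows chosen for their CpG sites. The windows of MEG3, SNRPN, MEST and PLAGL1 hold 19, 18, 25 and 39 CpG sites and that of H19 holds 6, beside a median of 14 over all promoters. A match describes these letters and shows no binding.

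Levels are given as CPM of the non-mitochondrial UMIs, summed over a set of cells, and are set side by side for the same gene only, since 3′ counting captures genes unequally. SNRPN, which encodes a spliceosomal protein, was read at 594 CPM in the lower MT class of SO-L1 (35089 UMIs), 736 CPM in the higher class (143156 UMIs), and 235 and 481 CPM in those of ASO-L1 (26872 and 171223 UMIs). It had most UMIs of the 10 members in each set of cells. PEG10, a gene derived from a retrotransposon, followed at 123, 165, 153 and 139 CPM in the same order. MEST, which encodes a membrane-bound hydrolase-like protein, stood at 50.8, 53.4, 52.4 and 67.2 CPM. KCNQ1OT1, a long antisense RNA that silences neighbouring genes on its own chromosome, stood at 50.1, 62.6, 28.0 and 42.5 CPM. H19, a maternally expressed non-coding RNA, stood at 22.0, 20.3, 17.8 and 13.2 CPM. The remaining 5 members had far fewer UMIs. MEG3, the maternally expressed non-coding RNA of chromosome 14, was at 3.39, 3.20, 1.57 and 1.97 CPM, and DLK1, the paternally expressed Notch-family ligand beside it, at 1.35, 1.41, 5.33 and 1.69 CPM. PLAGL1, a zinc-finger factor, was at 1.07, 1.22, 1.77 and 1.45 CPM.

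**Figure D1:**
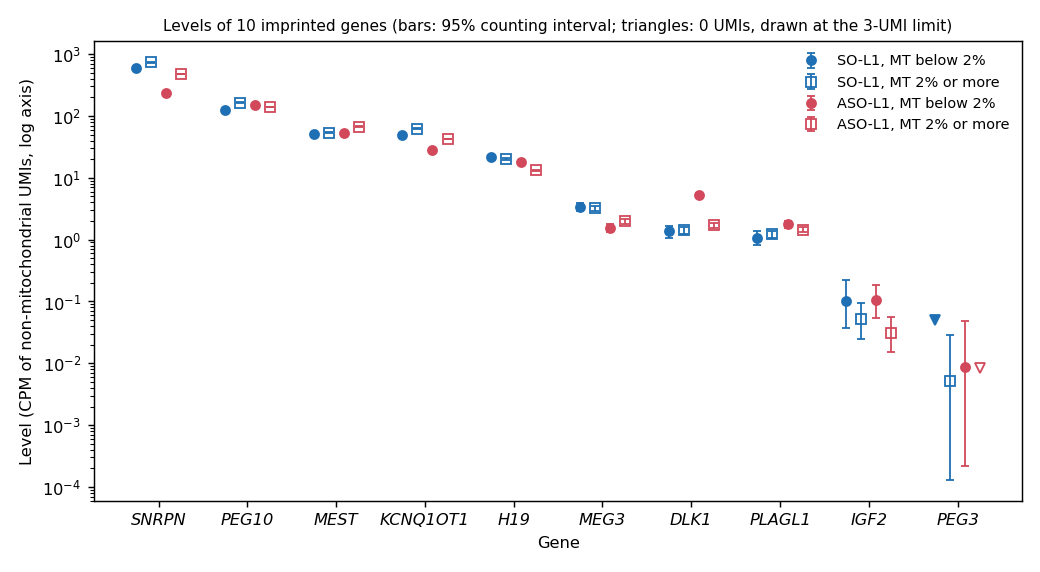
Level of each member in CPM of non-mitochondrial UMIs (log axis) in the 4 sets of cells, with exact Poisson 95% intervals that cover counting error only. SNRPN lies highest, between 235 and 736 CPM, while MEG3, DLK1 and PLAGL1 lie between 1.07 and 5.33 CPM.

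A member was called different between 2 sets of cells when its ratio of CPM was at least 1.5-fold from 1, its exact binomial 95% interval excluded 1 and it had at least 50 UMIs over both sets. The intervals cover counting error only: they take each UMI as an independent draw and ignore how much cells or libraries vary. In the lower MT class, 2 of the 8 measured members (DLK1 and PLAGL1) were higher in ASO-L1, where 23.1% of 21431 measured genes were called higher. There 3 members (MEG3, SNRPN and KCNQ1OT1) were lower, where 24.9% of genes were called lower. In the higher MT class no member was called higher, where 12.7% of 23608 genes were. There 3 (MEG3, H19 and SNRPN) were lower, where 16.1% of genes were. With 8 members, a gene or so more or less than these shares is no result about them. The median ratio over the 8 members in the higher class was 0.762, beside 0.957 over all genes. The corresponding medians in the lower class were 0.919 and 0.991.

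The classes were also compared within each library. In SO-L1 none of the 8 was called higher or lower in the lower MT class, where 21.1% of 21557 genes were called higher and 6.23% lower. Their ratios ran from 0.746 for PEG10 to 1.09 for H19. In ASO-L1, DLK1 was called higher in the lower MT class and SNRPN and KCNQ1OT1 lower, where 28.3% of 23540 genes were called higher and 12.2% lower. The median ratio over all genes was 1.08 in SO-L1 and 1.12 in ASO-L1, and over the 8 members 0.912 and 0.948.

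**Figure D2:**
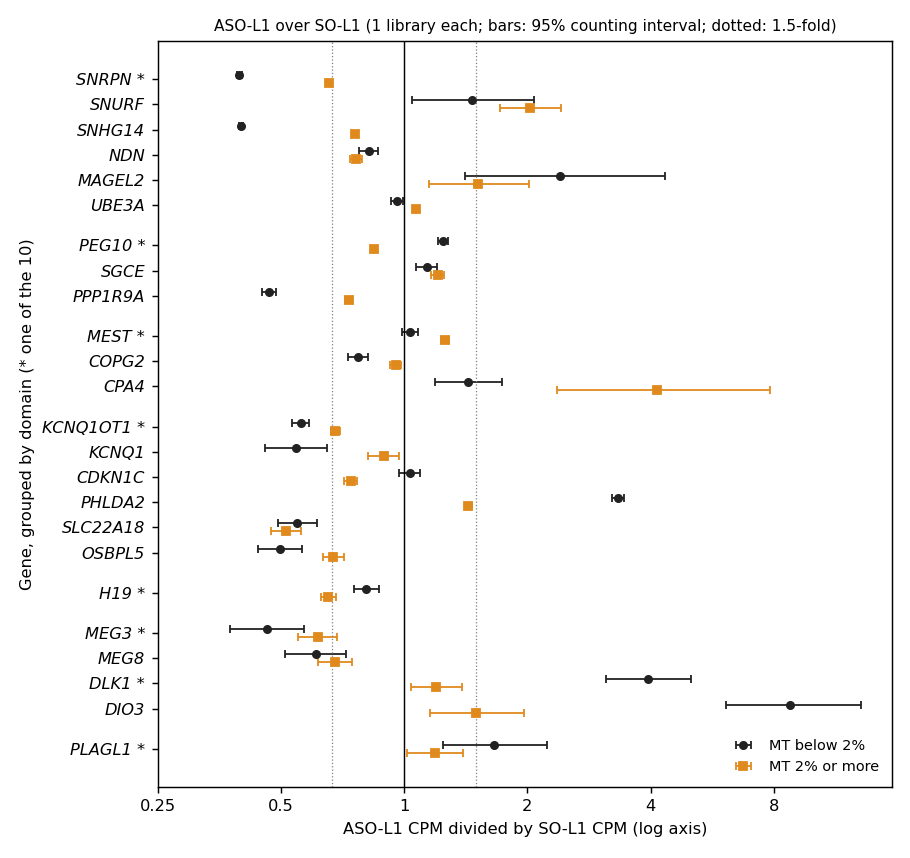
Ratio of CPM (log axis) in ASO-L1 over SO-L1 within each MT class, for the measured members (starred) and other genes of their domains. Bars are exact 95% intervals for counting error, and dotted lines mark 1.5-fold. DLK1 reached 3.93 and SNRPN 0.396 between the libraries in the lower MT class.

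In the MEG3 domain of chromosome 14, MEG3 RNA came from very few cells, in both libraries. MEG3 (ENSG00000214548, chr14:100779410-100861031, plus strand, GRCh38) had 3 or more UMIs in 35 of 6553 SO-L1 cells (0.534%, exact 95% interval 0.372% to 0.742%). In ASO-L1 it had 3 or more in 38 of 9084 cells (0.418%, interval 0.296% to 0.574%). These cells are called MEG3-rich below. They held 769 of the 822 MEG3 UMIs in SO-L1 (93.6%) and 806 of 879 in ASO-L1 (91.7%). Within them MEG3 was abundant, with a median of 21 UMIs and at most 84 in SO-L1, and a median of 18.5 and at most 52 in ASO-L1. MEG3 had 10 or more UMIs in 26 SO-L1 and 30 ASO-L1 cells, and none in 6471 and 8983 cells. Only 6 SO-L1 and 10 ASO-L1 cells had 2 UMIs, and 41 and 53 had 1. The same number of UMIs spread evenly over cells would place 3 or more in 1.96 cells of SO-L1 and 1.28 of ASO-L1. Single MEG3 UMIs are not read as expression, since barcodes with under 1000 genes gave them as well, 14 of 6045 in SO-L1 (0.232%) and 4 of 2045 in ASO-L1 (0.196%). Of all such barcodes, 5032 of 6045 in SO-L1 and 788 of 2045 in ASO-L1 are kept cells of the other library. In these, UMIs of free RNA and UMIs carried over from that library cannot be told apart.

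**Figure D3:**
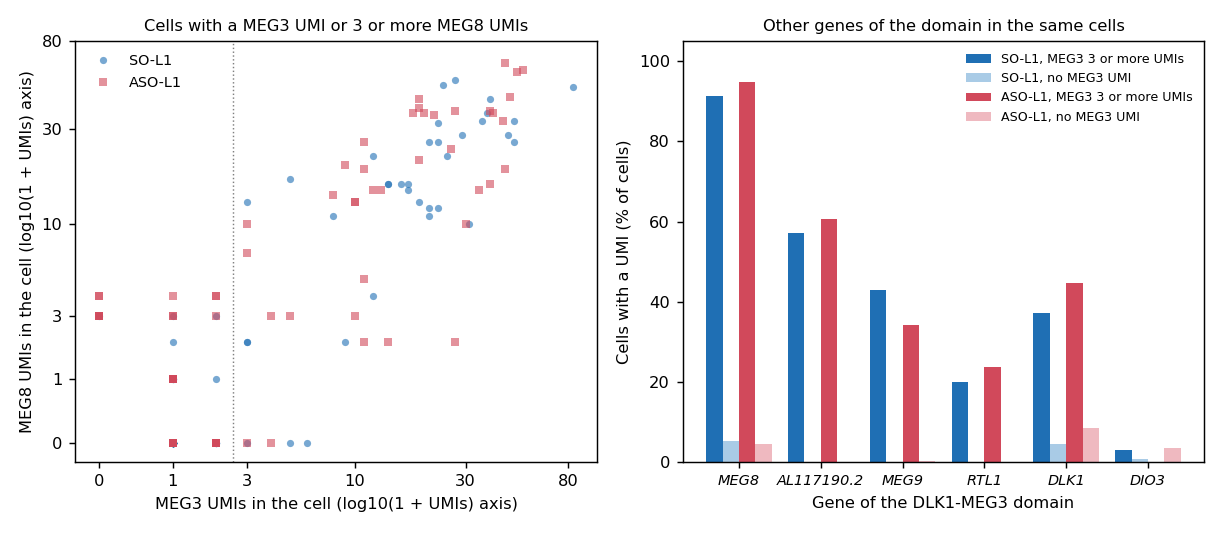
Left, UMIs of MEG8, another RNA of the domain, against MEG3 UMIs (log axes), in cells with a MEG3 UMI or 3 or more MEG8 UMIs. Right, percent of MEG3-rich cells and of cells without MEG3 that have a UMI of other domain genes. Cells with 3 or more MEG3 UMIs number 35 in SO-L1 and 38 in ASO-L1 and reach 84 and 52 UMIs, while cells with 2 UMIs number 6 and 10.

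The MEG3-rich cells were found in both MT classes. They made up 11 of 1857 cells (0.592%, interval 0.296% to 1.06%) and 24 of 4696 cells (0.511%, interval 0.328% to 0.759%) in the lower and higher class of SO-L1. In ASO-L1 they made up 6 of 2531 (0.237%, interval 0.0870% to 0.515%) and 32 of 6553 (0.488%, interval 0.334% to 0.689%). These 4 intervals overlap, and a difference between the shares was not tested. Their depth was slightly above that of the other cells, with a median of 47320 UMIs against 42277 (SO-L1) and 64594 against 53904 (ASO-L1). Their median MT share was 7.94% against 7.86% in SO-L1 and 8.33% against 6.40% in ASO-L1. One of the 35 SO-L1 barcodes and none of the 38 ASO-L1 barcodes was also a kept cell of the other library.

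MEG3 was called lower in ASO-L1 in both classes, at 0.462 (interval 0.376 to 0.569) and 0.615 (interval 0.552 to 0.687) of its SO-L1 level. These ratios rest on few cells. With the 10 cells highest in MEG3 left out of each set, they were 0.809 in the lower and 0.770 in the higher MT class, and neither passed the 1.5-fold threshold. In the lower class this left out nearly all 11 MEG3-rich cells of SO-L1 and all 6 of ASO-L1. Too few UMIs were then left for a call, so the 0.809 cannot show whether the difference holds there.

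Several other RNAs between MEG3 and DIO3, but not all, were concentrated in the same cells. MEG8 (chr14:100894770-101038859, plus strand), a non-coding RNA that hosts small nucleolar RNAs, had 691 of its 1056 SO-L1 UMIs and 828 of 1291 ASO-L1 UMIs in the MEG3-rich cells (65.4% and 64.1%). Its level there was 280-fold (interval 246 to 319) and 374-fold (interval 333 to 421) that of cells without a MEG3 UMI. A MEG8 UMI was found in 32 of the 35 and 36 of the 38 cells, against 5.25% and 4.48% of cells without MEG3. Conversely, 32 SO-L1 and 45 ASO-L1 cells had 3 or more MEG8 UMIs, of which 29 and 33 were MEG3-rich and 1 and 6 had no MEG3 UMI. MEG9, a further non-coding RNA downstream, had 30 of 34 UMIs in these cells in SO-L1 and 16 of 41 in ASO-L1. AL117190.2, annotated antisense inside MEG3, had 49 of 50 and 53 of 56 of its UMIs there. RTL1, a retrotransposon-derived gene antisense to the MEG8 region and paternally expressed, had 8 of 13 and 10 of 13. AL132709.7, a non-coding RNA beside MEG9, had none of its 53 SO-L1 and 426 ASO-L1 UMIs there. The interval of its ratio reached up to 10.5 and 1.71. Of the genes from DLK1 to DIO3 with a UMI, 7 of 13 in SO-L1 and 7 of 14 in ASO-L1 were 5-fold or more higher in MEG3-rich cells. These counts include MEG3 itself, and no minimum of cells was set for them. DIO3 entered in SO-L1 with 7 UMIs from 1 cell, and MIR381HG, a non-coding RNA, in ASO-L1 with 2 UMIs. The counts are thus not matched to those outside the domain given below, which needed a UMI in at least 10 of the cells. The sources used here do not say whether the counting used strand, so AL117190.2 and RTL1 reads cannot be told apart from those of the RNAs they overlap.

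DLK1 and DIO3, at the ends of the domain, had few of their UMIs in these cells. DLK1 had a UMI in 13 of the 35 SO-L1 and 17 of the 38 ASO-L1 MEG3-rich cells, and its level in them was 9.43-fold (interval 5.68 to 14.8) and 6.54-fold (interval 4.58 to 9.08) that of cells without MEG3. Still, they held only 5.63% and 3.05% of all DLK1 UMIs. DIO3, which encodes a thyroid-hormone deiodinase, had 7 UMIs in 1 of the SO-L1 cells and none of its 749 UMIs in the ASO-L1 cells.

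Outside the domain, few of the genes seen in 10 or more MEG3-rich cells were much higher there. Among genes with a UMI in at least 10 of these cells, 0 of 10763 in SO-L1 (0%) and 3 of 11550 in ASO-L1 (0.026%) were 5-fold or more higher than in cells without MEG3 with an interval excluding 1. Genes found in fewer of the cells could not enter. The domain's own RTL1, with a UMI in 7 and 9 of them, would not have passed this minimum. The 3 ASO-L1 genes were SCHLAP1, GPR1-AS and ZFP57, the first 2 of them named after their values were seen. ZFP57 had a UMI in 12 of the 38 ASO-L1 cells (31.6% against 4.37%), at 8.69-fold (interval 5.52 to 13.1). In SO-L1 it had a UMI in 2 of the 35 cells (5.71% against 4.99%), at 0.641-fold (interval 0.0774 to 2.33). GPR1-AS, an imprinted antisense RNA of the ZDBF2 locus, was 5.25-fold higher in ASO-L1 (interval 3.87 to 6.97) and 3.13-fold higher in SO-L1 (interval 2.24 to 4.26). SCHLAP1, a long non-coding RNA, was at 6.98-fold (interval 5.72 to 8.43) and 1.88-fold (interval 1.27 to 2.69), with a UMI in 13 and 7 of the cells.

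The other members did not share this pattern. In MEG3-rich cells over cells without MEG3, H19 was at 1.44 in SO-L1 and 1.20 in ASO-L1, PEG10 at 0.796 and 0.766, SNRPN at 0.895 and 1.16, MEST at 0.845 and 0.960, and KCNQ1OT1 at 1.19 and 0.961. The pluripotency list was at 1.02 and 1.13, the naive list at 1.33 and 1.48, and the primed list at 0.921 and 1.04. The 8C list was at 9.17 in SO-L1, where 70 of its 76 UMIs came from 1 cell, and at 0.0670 in ASO-L1 (6 UMIs).

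DLK1 (chr14:100725705-100738224, plus strand) was higher in the ASO-L1 cells with a low MT share than in any other set. Its 609 UMIs there gave 5.33 CPM (interval 4.91 to 5.77), against 1.35 (80 UMIs), 1.41 (275 UMIs) and 1.69 CPM (603 UMIs) in the other 3 sets. The ratio to SO-L1 was 3.93 (interval 3.11 to 5.03) in the lower MT class and 1.20 (interval 1.04 to 1.39) in the higher class, where it was not called. Within ASO-L1 the lower class was at 3.15 times the higher (interval 2.81 to 3.53). Thinned to 8000 UMIs per cell, 4.92% of lower-class ASO-L1 cells had a DLK1 UMI (interval 4.06% to 5.90%), against 1.09% in SO-L1, and 0.874% and 1.14% in the higher classes. Without thinning the shares were 12.8%, 3.98%, 4.83% and 7.0%. DLK1 had 3 or more UMIs in 56 of 2531 lower-class ASO-L1 cells (2.21%) and in 0 of 1857 SO-L1 cells, which allows a share of up to 0.162%. Of the barcodes with under 1000 genes, 12 of 6045 in SO-L1 and 1 of 2045 in ASO-L1 had a DLK1 UMI.

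The marker lists differed by DLK1 within this set. Lower-class ASO-L1 cells with a DLK1 UMI had 0.541 of the naive level (interval 0.482 to 0.606), 0.523 of the 8C level (interval 0.400 to 0.671) and 0.710 of the pluripotency level of cells without one. The trophectoderm or amnion list was at 2.07 (interval 1.35 to 3.06) in them, and the mesenchymal list at 1.05 (interval 0.923 to 1.20). In the higher class of ASO-L1, the 72 cells with a DLK1 UMI at this depth stood at 3.81 for the mesenchymal list (interval 3.2 to 4.5) and 3.23 for the 8C list (interval 1.83 to 5.30). Their part in the difference between the libraries was not tested. DIO3, at the other end of the domain, was also higher in lower-class ASO-L1 cells, at 8.78 (interval 6.11 to 13.1). Both RNAs were found in 8 of the 2235 thinned cells, beside 4.04 from the product of their shares (110 cells with DLK1 and 82 with DIO3), so most cells with one lacked the other at this depth.

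In the SNRPN domain of chromosome 15, SNRPN and SNHG14, both paternally expressed, were lower in ASO-L1 in the lower MT class. SNRPN (chr15:24823637-24978723, plus strand) was at 0.396 (interval 0.389 to 0.402) of its SO-L1 level there and at 0.654 (interval 0.649 to 0.659) in the higher class. The call in the higher class was lost with the median ratio of all genes as the scale (0.683) and with means over cells (0.669). SNHG14, the long host transcript of the region's small nucleolar RNAs, was at 0.399 and 0.760, from 924 and 1022 CPM in SO-L1 to 368 and 777 CPM in ASO-L1. NDN, a growth regulator, was less reduced in the lower class, at 0.820, and close to SNHG14 in the higher, at 0.764. MAGEL2, a partner of ubiquitin ligases, did not follow, at 2.40 and 1.52. UBE3A, a ubiquitin ligase imprinted in neurons, was at 0.960 and 1.07. SNURF, which shares a transcript with SNRPN, was at 1.46 (interval 1.05 to 2.08) and 2.03 (interval 1.71 to 2.42). SNURF's level did not pass 1.78 CPM in any set, and the sources used here do not say how reads were divided between it, SNRPN and SNHG14.

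SNRPN was the member found in most cells, and the cells without it stood apart. At 8000 UMIs per cell it was detected in 93.9% and 99.0% of lower- and higher-class SO-L1 cells and in 68.6% and 92.5% of ASO-L1 cells. An even spread of the same UMIs would have given 99.0%, 99.5%, 85.0% and 97.1%. Without thinning it was detected in 91.6%, 96.4%, 89.3% and 97.8% of all kept cells, the shallower ones included. Among lower-class ASO-L1 cells, the 1533 with a SNRPN UMI had 2.05 times the pluripotency level (interval 1.99 to 2.10) and 0.381 of the 8C level (interval 0.352 to 0.414) of the 702 without. The 8C level was also lower in SNRPN-positive cells of the other 3 sets, at 0.108 and 0.154 in lower- and higher-class SO-L1 and 0.201 in higher-class ASO-L1. Cells without SNRPN numbered 95, 45 and 472 in these sets, with 108, 4 and 127 8C UMIs. The 0.154 thus rests on 4 8C UMIs in cells without SNRPN, and its interval is wide (0.057 to 0.583). SNHG14 was found in 75% of lower-class ASO-L1 cells with SNRPN and in 48.3% of those without. These marker levels move with the lower SNRPN level in ASO-L1, and their part in it was not tested.

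On chromosome 11, H19 had UMIs enough to measure in each set of cells, and IGF2 had not. H19 (chr11:1995176-2001470, minus strand) had 1300 and 3943 UMIs in the lower and higher MT class of SO-L1, and 2029 and 4705 in ASO-L1. Its ASO-L1 level was 0.807 of that in SO-L1 (interval 0.752 to 0.865) in the lower class and 0.652 (interval 0.625 to 0.681) in the higher, where it was called lower. That call was lost with the median ratio of all genes as the scale (0.682) and with means over cells (0.692). At 8000 UMIs it was detected in 14.9%, 12.9%, 11.3% and 8.58% of cells. An H19 UMI was found in 1.37% (SO-L1) and 1.91% (ASO-L1) of barcodes with under 1000 genes, whose median depth was 860 and 1054 UMIs, and its level in them was 18.0 and 27.5 CPM. With levels this close to those of cells, the share of cells with an H19 UMI is not read as a share that expresses it. A few lower-class ASO-L1 cells were rich in it: 34 had 10 or more H19 UMIs, up to 34 in 1 cell, against 6 in SO-L1, up to 18. In that set, H19-positive cells stood at 1.60 for the naive list and 1.79 for the 8C list. IGF2 (chr11:2129112-2149603, minus strand), the growth factor gene that shares a control region with H19, had 6, 10, 12 and 11 UMIs in the 4 sets and never more than 1 UMI in a cell.

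KCNQ1OT1 (chr11:2608328-2699994, minus strand) was lower in ASO-L1, at 0.558 (interval 0.531 to 0.587) in the lower MT class, where it was called, and 0.679 (interval 0.663 to 0.696) in the higher class, just short of the threshold. It was detected in 29%, 33.3%, 18.8% and 24.6% of cells at 8000 UMIs. KCNQ1OT1-positive cells had less 8C RNA in the lower class, at 0.192 in SO-L1 and 0.455 in ASO-L1. KCNQ1, a potassium channel gene that KCNQ1OT1 overlaps on the other strand, was at 0.544 and 0.891 in ASO-L1, and reads of the pair cannot be told apart if strand was not used. Of the maternally expressed genes that KCNQ1OT1 is known to silence in cis, PHLDA2, a growth-restricting gene of the placenta, was at 3.33 (interval 3.22 to 3.45) and 1.44. It went from 65.5 and 58.7 CPM in SO-L1 to 218 and 84.2 CPM in ASO-L1. The others did not move that way: CDKN1C, a cell-cycle inhibitor, was at 1.03 and 0.741, SLC22A18, a transporter gene, at 0.548 and 0.513, and OSBPL5, a lipid-binding protein gene, at 0.497 and 0.671.

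On chromosome 7, PEG10 and MEST stayed within 1.5-fold. PEG10 (chr7:94656325-94669695, plus strand) was at 1.24 (interval 1.21 to 1.28) in the lower MT class and 0.844 (interval 0.833 to 0.856) in the higher, and neither reached 1.5-fold. It was detected in 53.6%, 63.4%, 58.3% and 57.9% of cells at 8000 UMIs. Its neighbour SGCE, which encodes a sarcoglycan and shares its promoter region, was at 1.13 and 1.21, PPP1R9A at 0.467 and 0.731, and TFPI2, a protease inhibitor gene, at 1.66 and 1.60. MEST (chr7:130486171-130506465, plus strand) was at 1.03 (interval 0.987 to 1.08) and 1.26 (interval 1.23 to 1.29), and was detected in 33.3%, 31.5%, 30.3% and 36.7% of cells at 8000 UMIs. MESTIT1, annotated antisense to MEST, was at 1.01 and 1.15, and COPG2 at 0.771 and 0.952. CPA4, a carboxypeptidase gene of this cluster, was at 1.43 and 4.14, from 2.61 and 0.0719 CPM in SO-L1.

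PLAGL1 (chr6:143940300-144064599, minus strand) was called higher in lower-class ASO-L1 cells, at 1.66 (interval 1.24 to 2.24) from 63 UMIs (SO-L1) and 202 (ASO-L1), and stood at 1.19 (interval 1.02 to 1.39) in the higher class. At 8000 UMIs it was detected in 0.837% and 0.782% of SO-L1 cells and in 1.88% and 1.28% of ASO-L1 cells. The 42 PLAGL1-positive cells of the lower ASO-L1 class stood at 2.30 for the 8C list (interval 1.87 to 2.81). In the higher class this ratio was 8.58 in SO-L1 (interval 2.26 to 23.2) and 0.703 in ASO-L1 (interval 0.191 to 1.81). Each of these rests on 4 8C UMIs in positive cells. HYMAI, a non-coding RNA that overlaps PLAGL1, was at 1.01 in the higher class and stayed under 50 UMIs in the lower. PEG3 (chr19:56810077-56840728, minus strand), a zinc-finger gene, had 1 UMI in higher-class SO-L1 cells, 1 in lower-class ASO-L1 cells and none in the other sets. Its 0 UMIs allow up to 0.0508 CPM in the lower class of SO-L1 and 0.00843 CPM in the higher class of ASO-L1. Its neighbours ZIM2, USP29 and ZIM3 stayed under 50 UMIs as well.

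Spread between cells was compared at 8000 UMIs per cell by the Fano factor, the variance over the mean of UMIs per cell, which is near 1 for counting alone. In the higher MT class of SO-L1, 2 of 7 members with enough UMIs (MEG3 and DLK1) had a Fano factor of 1.5 or more, where 4.34% of 15502 genes did. In the higher class of ASO-L1, 3 of 8 (MEG3, DLK1 and SNRPN) did, where 5.68% of 15418 genes did. MEG3 had the highest value of the members in all 4 sets, at 4.54 and 5.75 in SO-L1 and 3.56 and 4.33 in ASO-L1. Its neighbour MEG8 was at 2.89, 4.56, 2.79 and 4.69 in the same order. DLK1 was at 1.20, 1.97, 1.35 and 2.85, but its value in higher-class ASO-L1 cells depended on the cells' random thinning and lay between 1.30 and 2.70 over 5 further draws. Its calls in the higher class rest on very few cells. The highest cell held 7 of 45 DLK1 UMIs in SO-L1 and 13 of 88 in ASO-L1. With the 10 highest cells left out, its Fano factor was 0.993 and 0.991. SNRPN was at 1.88, 1.23, 2.48 and 1.55, and PEG10 at 1.97, 1.31, 1.94 and 1.45. Both lay near the threshold in higher-class ASO-L1 cells, where SNRPN passed in 4 of the 5 further draws (1.46 to 1.59) and PEG10 in 2 (1.45 to 1.53). Thinned to 16000 UMIs instead, PEG10 passed in the higher class of both libraries, at 1.59 and 1.94. KCNQ1OT1 was at 1.61, 1.21, 1.39 and 1.26, H19 at 1.30, 1.05, 1.74 and 1.14, and MEST at 0.968, 1.05, 1.19 and 1.07. In the lower MT class 4 members passed in each library, where 12.6% of 16775 genes in SO-L1 and 17.6% of 17088 in ASO-L1 did. MEST thus varied between cells about as counting gives, whereas MEG3 departed most from it.

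**Figure D4:**
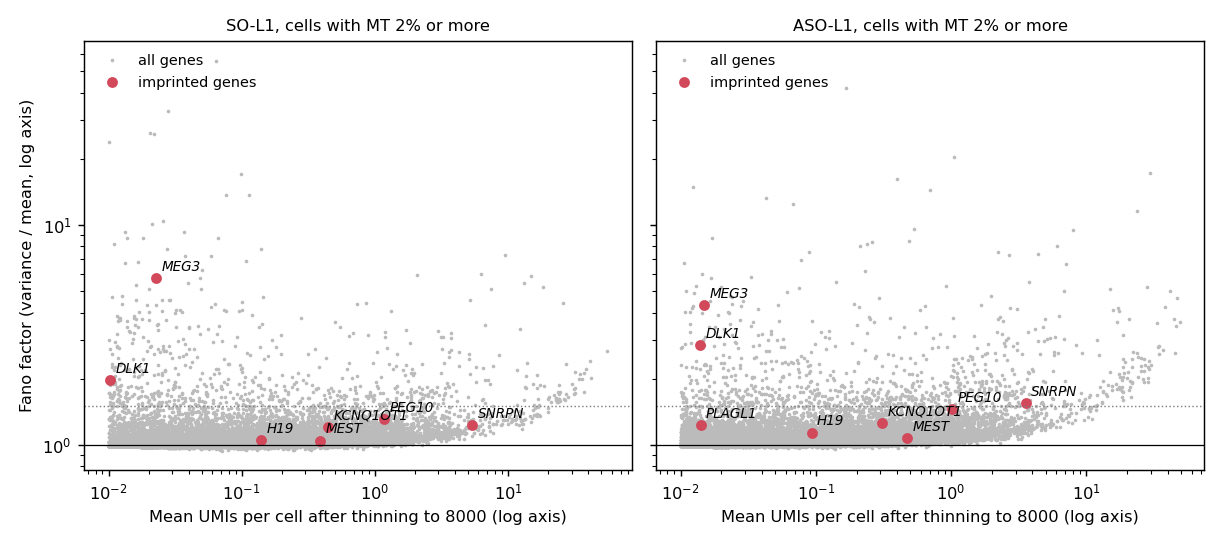
Fano factor against mean UMIs per cell at 8000 UMIs (log axes), in the higher MT class of each library. Members with a mean of at least 0.01 UMIs are drawn over all such genes (grey). Lines mark 1, for counting alone, and 1.5. MEG3 lies highest of the members, at 5.75 in SO-L1 and 4.33 in ASO-L1, and MEST lies at 1.05 and 1.07.

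The 5 members with most UMIs hardly moved together across cells. Over 4350 SO-L1 and 6329 ASO-L1 cells of the higher MT class, the mean of the Pearson correlations in the 2 libraries lay between -0.02 and 0.05 for all pairs of SNRPN, PEG10, MEST, KCNQ1OT1 and H19. Of 10239 genes compared, those most like SNRPN were H3F3A (r 0.20 in SO-L1 and 0.33 in ASO-L1), SERBP1 (0.071 and 0.46) and RPL26 (0.089 and 0.41), the last pair nearly unrelated to it in SO-L1. The gene most like PEG10 was VIM (mean r 0.12). For MEST (PTPRG, 0.066) and H19 (DPPA5, 0.055) the closest gene was less near. Cells of 1 library share its preparation, counts per cell are low, and such weak values describe no more than this likeness.

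Of 30 other imprinted genes in the members' domains that are in the tables, 20 were measured in the lower MT class, with 4 higher and 7 lower in ASO-L1, and 22 in the higher class, with 4 higher and 2 lower. Over all genes the shares were 23.1% higher and 24.9% lower in the lower class, and 12.7% and 16.1% in the higher. Of 23 imprinted genes elsewhere, 21 were measured in each class, with 1 higher and 6 lower in the lower class and 2 higher and 2 lower in the other. GNAS, which encodes a G-protein subunit and has most UMIs of these, was at 1.10 and 1.18. L3MBTL1, a chromatin reader gene, was at 0.469 and 0.760, and GNAS-AS1, the antisense RNA of the GNAS locus, at 0.488 and 0.727. ZNF597, a zinc-finger gene, was higher in both, at 2.23 (interval 1.83 to 2.73) and 2.01 (interval 1.78 to 2.28).

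The list of imprint keepers and DNA methylation factors holds 18 genes, TET1, TET2 and TET3 among them. Of these, 17 were measured in the lower MT class, with 3 higher and 3 lower in ASO-L1. In the higher class 18 were measured, with 3 higher and none lower. In the lower class both counts are below the 23.1% and 24.9% of all genes called, and in the higher class the shares over all genes were 12.7% and 16.1%. DPPA3, which protects maternal methylation in the early embryo and is also a naive marker, was highest in fold at 4.22 (interval 3.98 to 4.47) and 2.06, from 21.9 and 11.1 CPM in SO-L1. DNMT3B, which sets new methylation, was at 0.438 (interval 0.428 to 0.449) and 0.746. NLRP7, a maternal-effect gene, was at 1.90 and 1.08. DNMT1, which copies methylation, was at 0.685 and 0.777, and its partner UHRF1 at 1.17 and 0.778. ZFP57 was at 0.632 and 0.687 from 2.57 and 1.57 CPM in SO-L1, ZNF445 at 1.14 and 1.03, and their co-factor TRIM28 at 1.33 and 0.952. Between the MT classes, DNMT1 was at 0.585 in SO-L1 and 0.516 in ASO-L1, and DNMT3B at 0.438 and 0.257.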

How the data were processed

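Single cells of 2 libraries (10x 3′ v3 chemistry, sorted for dye) were analysed. The deposited values are unnormalised UMI counts for each gene in each barcode. The submitters' processing notes name Cell Ranger 7.1.0 and hg38. The sources used here do not give the annotation, the use of strand or intronic counting. From these counts, cells were kept with at least 1000 genes and under 20% mitochondrial UMIs, giving 273349662 (SO-L1) and 499106701 (ASO-L1) UMIs. No doublet caller was run. UMIs were summed per set of cells and divided by the non-mitochondrial total. Ratios carry exact conditional binomial and shares exact Clopper-Pearson 95% intervals, levels exact Poisson ones, all for counting error only, and a 0 was given a limit of 3 counts (UMIs or cells) of its total. For shares at equal depth and Fano factors (thinned mean of at least 0.01), cells were thinned to 8000 UMIs without replacement, which left out 303, 346, 296 and 224 shallower cells. With 1 library a group there is no test and no p-value.

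The members, gene lists and tests were chosen with earlier results of these data known. The text names all members and most of the other genes of their domains. ATP10A, NPAP1 and MKRN3 of the SNRPN domain are among those not described. Imprinted genes elsewhere, and imprint keepers and DNA methylation factors, were picked as the 3 with most UMIs and the 3 with the largest ratio. Of these only some are described, along with the main imprint-keeping factors. The rules also pick some genes that are left out here. Of 84 list entries, 81 were in the tables, and positions come from GENCODE 29. The alternatives were other totals, scales, cell filters, class limits, fold and UMI minimums, thinning depths and Fano limits, and leaving out deep cells, the highest cells or shared barcodes. The calculation was tested on simulated counts. Python 3.11.15, numpy 2.4.6, scipy 1.17.1, pandas 2.3.3 and matplotlib 3.10.9 were used.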

Additional observations from a re-analysis of the deposited data

Results flagged for a closer look

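PEG10 moved in opposite directions in the 2 MT classes. Its ratio of ASO-L1 over SO-L1 was 1.24 in the lower MT class and 0.844 in the higher. Likewise its ratio of the lower over the higher class was 0.746 in SO-L1 and 1.10 in ASO-L1. Each interval for counting error excluded 1, and no ratio reached 1.5-fold. The difference between the classes was not tested, since each library stands alone. Over all alternatives the 4 ratios ranged from 1.21 to 1.29, 0.830 to 0.882, 0.683 to 0.820 and 0.998 to 1.19. The 0.998 came with the median ratio of all genes as the scale, so the direction within ASO-L1 did not hold there.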

How the results depend on the processing

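No ratio of a called member changed direction under any alternative. Of 384 alternative ratios of members, 297 moved by less than their counting interval and 87 by more. With all UMIs as the total, members lower in the lower MT class of ASO-L1 numbered 1 (SNRPN) in place of 2. With the median ratio of all genes as the scale, or with means over cells, members lower in higher-class ASO-L1 numbered 1 (MEG3) in place of 3. Means over cells also gave 2 higher (DLK1 and PLAGL1) and 1 lower member in the lower class of ASO-L1. Leaving out the 10 cells with most UMIs of a member gave 1 lower member (MEG3) in the lower class of SO-L1 in place of 0. For MEG3 this removed nearly all of the 11 MEG3-rich cells of that class. Without all barcodes found in both libraries, the lower class of ASO-L1 had 3 higher members (H19, DLK1 and PLAGL1) and 1 lower (SNRPN), and the share of MEG3-rich ASO-L1 cells was 0.291%. With no UMI minimum it had 2 higher (IGF2 and DLK1). At 2-fold, 1 member was higher in lower-class ASO-L1 cells (DLK1), 0 were lower in the higher class, and 1 was lower between the classes of ASO-L1. Overdispersed members numbered 0 in both libraries at 4000 UMIs and with the 10 highest cells left out, and 1 in SO-L1 at a Fano factor of 2 (MEG3). At 4000 UMIs and with the 10 highest cells left out, the means of MEG3 and DLK1 fell under the minimum. With those cells left out, the Fano factor of DLK1 itself fell to 0.993 in SO-L1 and 0.991 in ASO-L1. That of MEG3 was then 1.63 and 1.78. At 4000 UMIs DLK1 was at 0.994 in SO-L1 and 1.69 in ASO-L1. SNRPN in ASO-L1 fell to 1.25 at 4000 UMIs and to 1.49 with those cells left out. The cause of the other changes was not tested. Few UMIs limit IGF2 and PEG3, and few cells limit MEG3. No paired analysis was possible because each group has 1 library.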
